A study of Mus musculus with 2 samples.

Results

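The Hedgehog pathway genes described here are 9 mouse genes, the ligands Shh and Ihh, the receptor Ptch1, the transducer Smo, the inhibitors Hhip and Sufu, and the transcription factors Gli1, Gli2 and Gli3. They were chosen by name, for their place in the pathway, out of 21938 protein-coding genes of the GENCODE M21 annotation. For each, every DNase I peak within 1 kb of any transcription start site (TSS) and every accessible site common to both replicates within 50 kb of its most 5′ TSS was collected, which gave 165 of the 197749 shared sites in the series. The sites come from DNase-seq of kidney tissue from newborn B6NCrl mice (postnatal age 0 days), a substrain of C57BL/6N. The source label names no added allele or treatment. The study holds 1 group of 2 replicates, so no test between conditions exists, and no p-value is given. The labels tie both replicates to 1 donor record and give each its own tissue record, and they do not say whether separate animals were used, so the spread between replicates may be technical. The lists held 266133 peaks in replicate 1 and 257133 in replicate 2, 99.4% and 99.5% of them 150 bp wide. The depth behind them is unknown, since they hold no read counts. A peak's signal is the authors' own value, with a median over all peaks of 17.1 in replicate 1 and 16.9 in replicate 2. Because nearly all peaks have the same width, signals were compared per peak between genes. Coordinates are those of mouse build mm10.

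The tissue label was checked against marker genes. All 10 kidney markers had a promoter peak in both replicates, against 71.8% of all protein-coding genes. They include Six2 of nephron progenitors, Nphs1 of podocytes and Umod of the thick ascending limb. For Pecam1, also among the 10, the replicates' strongest peaks lay at different places, and that of replicate 1 stood near a start of Milr1. All 3 smooth muscle markers (Acta2, Tagln and Myh11) also had a peak in both replicates. So did 2 of 3 markers of the adrenal cortex, Star at 40.2 ± 0.442 and Cyp17a1 at 42.6 ± 0.475 (SD, n = 2), whereas Cyp11b1 had none. The leukocyte gene Ptprc had a peak of 8.72 in replicate 1 and none in replicate 2, and the other leukocyte marker, Spi1, averaged 12.9 ± 1.56 (SD, n = 2). Alb of liver, Cdx1 of gut and Scgb1a1 of lung had no promoter peak in either replicate. What the adrenal, smooth muscle and leukocyte cells that these markers point to add to the values below was not tested.

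Hedgehog ligands bind the receptor Patched, which otherwise holds Smoothened inactive. Released Smoothened acts at the primary cilium. Sufu restrains the Gli factors, the proteins that activate or repress target genes. Ptch1, Gli1 and Hhip are themselves known target genes, so they act as feedback on the pathway and serve as its usual readout. In the developing kidney and ureter, Shh is made by the epithelium of the ureter and the medullary collecting ducts, and the surrounding mesenchyme responds and forms smooth muscle. Ihh is made by renal tubules, and unbalanced Gli3 repressor disturbs nephron number and ureter development. DNase I cuts DNA that is free of nucleosomes, so a peak of cuts marks accessible chromatin, as found at promoters, enhancers and insulators.

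The receptor, the transducer, both inhibitors, all 3 Gli factors and the ligand gene Ihh had promoter peaks in both replicates, whereas Shh had one in replicate 2 alone. That is 8 of 9 members (88.9%), against 71.8% of all protein-coding genes. In replicate 1 the count was 8 of 9, against 72.8% of all protein-coding genes, and in replicate 2 it was 9 of 9, against 72.9%. From the lowest to the highest of 5 quintiles of promoter CpG (observed over expected), 19.2%, 53%, 89.7%, 97.9% and 99% of all protein-coding genes had such peaks in each replicate, and all members lie in the upper 3 quintiles. Of the 5 members in the third quintile (Shh, Ptch1, Smo, Hhip and Gli1), 4 had a peak in both replicates, against 89.7% of all genes there. In the fourth quintile all 3 had one (Ihh, Sufu and Gli2), against 97.9% of all genes there, and Gli3 stood in the fifth, where 99% of all genes had one. The members' count is thus near that of genes with like CpG content. In tissue of mixed cells, fewer accessible cells and weaker access in each cell cannot be told apart.

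The strongest promoter peak of a gene gave its promoter signal. The median over the 8 members with a peak in both replicates was 117, against 94.0 in replicate 1 and 103 in replicate 2 for all protein-coding genes with a promoter peak. Taken alone, replicate 1 gave the members a median of 117 and replicate 2, with Shh included, 104. Among the members, promoter signal was highest at Sufu and fell through Ptch1, Smo, Gli1, Gli2, Gli3 and Hhip to Ihh and Shh. Gli2 and Gli3 could not be ordered, since their replicate values overlapped and replicate 2 had Gli3 above Gli2. Shh had no value in replicate 1 and stood below Ihh in replicate 2 alone. All other neighbours in that order were separated in both replicates, though 2 values per gene give only a rough measure of spread. The order also depends on the window. With windows of 500 bp, Ptch1 at 80.1 and Gli1 at 77.5 fell below Smo at 146, Gli2 at 106 and Gli3 at 96.7.

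**Figure D1:**
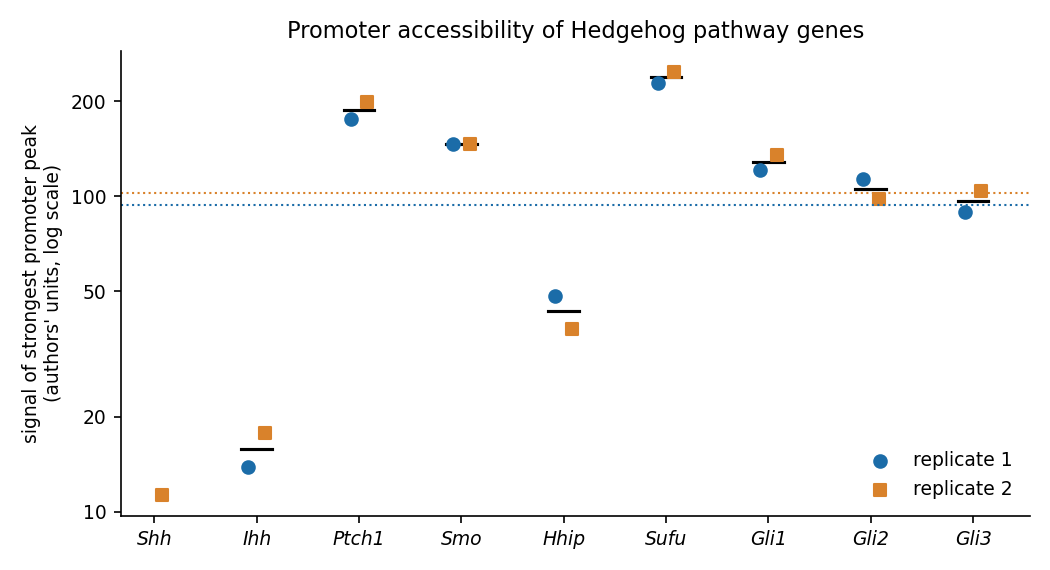
Signal of the strongest peak within 1 kb of any TSS of each gene (authors' units, log axis), with replicate 1 as circles, replicate 2 as squares and the mean as a bar. Dotted lines are the medians over all protein-coding genes with a promoter peak, 94.0 in replicate 1 and 103 in replicate 2. Sufu, Ptch1, Smo and Gli1 lie above both lines, Hhip and Ihh lie below them, and Shh has a point for replicate 2 alone.

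The ligand genes had the weakest promoters of the set. Shh (chr5:28456815-28467256, minus strand) encodes Sonic hedgehog, the ligand of the ureteric and collecting duct epithelium. No peak lay within 1 kb of its single TSS in replicate 1, and replicate 2 had 1 peak with a signal of 11.3, at chr5:28466841-28466990, 340 bp downstream of the TSS. That signal was above those of 2.09% of protein-coding genes with a promoter peak in replicate 2. Ihh (chr1:74945315-74951672, minus strand), the ligand Indian hedgehog, had a promoter signal of 13.9 in replicate 1 and 17.8 in replicate 2, averaging 15.9 ± 2.75 (SD, n = 2), at percentiles 4.73 and 7.99 of the genes with a promoter peak. Both replicates placed this weak peak just upstream of the Ihh TSS.

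The strongest sites away from the promoters had higher signals than the promoters at both ligand genes. Around Shh there were 8 shared sites within 50 kb, none of them at a promoter, and 7 lay in introns of Shh or of the long noncoding RNA genes 9530036O11Rik and Gm26894. The strongest was intergenic, 15870 bp downstream of the TSS at chr5:28451301-28451470, with signals of 40.1 in replicate 1 and 62.6 in replicate 2, averaging 51.4 ± 15.9 (SD, n = 2), and it held a match to the CTCF motif. CTCF is the protein of insulators and loop anchors. The second lay 33970 bp upstream, in an intron of 9530036O11Rik, with 26.0 in replicate 1 and 29.4 in replicate 2, and the third 2720 bp upstream with 14.6 and 22.3. The other 5 Shh sites had between 7.75 and 15.05 in replicate 1, and one of them, chr5:28464761-28465010 in the Shh gene, differed most between replicates among all 165, with 7.75 in replicate 1 and 16.5 in replicate 2. At Ihh, 14 shared sites lay within 50 kb, and 11 of them were outside promoters. One stood out at chr1:74964601-74964750, 13004 bp upstream in the intergenic stretch before Nhej1, with signals of 91.2 in replicate 1 and 121 in replicate 2, averaging 106 ± 20.9 (SD, n = 2), at percentiles 95.8 and 97.0 of all peaks. The next Ihh sites, in an intron 2666 bp and an exon 3526 bp downstream of the TSS, averaged 30.5 ± 1.06 and 26.5 ± 0.420 (SD, n = 2). These distal sites and the stretch before the Ihh TSS are shown because they carry the contrast between a weak promoter and a strong distal site. Sequences run 5′ to 3′ on the minus strand, which is the gene strand of both, and the Ihh promoter (chr1:74951673-74951922) is RefSeq's for GRCm38.p6, with the bases after the TSS left out. Capitals mark the CTCF match in the first and GC boxes (GGGCGG on either strand, read by SP and KLF factors) in the last.
Shh distal site, chr5:28451301-28451470: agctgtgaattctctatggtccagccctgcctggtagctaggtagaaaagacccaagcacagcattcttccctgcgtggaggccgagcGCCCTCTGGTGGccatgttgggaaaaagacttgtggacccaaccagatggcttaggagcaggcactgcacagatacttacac
Ihh distal site, chr1:74964601-74964750: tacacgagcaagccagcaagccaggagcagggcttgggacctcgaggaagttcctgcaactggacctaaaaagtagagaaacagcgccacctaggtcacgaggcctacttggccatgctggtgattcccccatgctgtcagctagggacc
Ihh promoter: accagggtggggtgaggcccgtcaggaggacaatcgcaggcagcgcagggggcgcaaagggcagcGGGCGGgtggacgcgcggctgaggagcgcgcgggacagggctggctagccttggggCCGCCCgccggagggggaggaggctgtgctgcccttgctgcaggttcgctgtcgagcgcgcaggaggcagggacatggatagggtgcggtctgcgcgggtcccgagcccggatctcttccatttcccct

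Ptch1 had the most shared sites of any member and 2 of the 3 exact matches to the GLI motif. The gene (chr13:63508328-63573598, minus strand) encodes Patched, the receptor that holds Smoothened inactive, and has 10 annotated TSSs, so more windows are searched for it than for the other members. Its promoter signal was 176 in replicate 1 and 199.6 in replicate 2, averaging 188 ± 16.9 (SD, n = 2), at percentiles 82.8 and 83.5 of the genes with a promoter peak. This strongest peak, chr13:63566281-63566430, lay 621 bp upstream of the TSS at position 63565735 and 7242 bp downstream of the most 5′ TSS. With windows of 500 bp it was no longer counted, and the Ptch1 promoter signal was 80.1. The most 5′ TSS itself had a weaker peak, with 46.6 in replicate 1 and 41.6 in replicate 2, and the starts at positions 63563815 and 63564326 had at most 84.0 in replicate 1 and 79.3 in replicate 2. Accessibility was thus spread over several alternative starts in both replicates, in 12 shared promoter sites. A further strong site, chr13:63567961-63568130, with 166 in replicate 1 and 187 in replicate 2, lay in the same stretch and at the start of the transcript A930032L01Rik inside Ptch1.

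Ptch1 had 34 shared sites within 50 kb, at percentile 97.4 of all protein-coding genes. They comprised 12 at its own promoters, 4 at the start of A930032L01Rik, 13 in its introns, 2 in exons and 3 between genes, and 29 of the 34 lay downstream of the most 5′ TSS. Outside promoters, the strongest was chr13:63525381-63525570 in an intron 48122 bp downstream, with 38.2 in replicate 1 and 45.4 in replicate 2, averaging 41.8 ± 5.12 (SD, n = 2). An intronic site 6802 bp downstream followed with 36.2 ± 4.25 (SD, n = 2), and another 48782 bp downstream with 26.7 in replicate 1 and 31.2 in replicate 2. None of these distal sites reached the signal of the strongest Ptch1 promoter peaks.

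Smo (chr6:29735503-29761365, plus strand) encodes Smoothened, the membrane protein that passes the signal on. Its promoter signal was 146 in both replicates (SD 0.0221, n = 2), at percentiles 73.4 and 67.9 of the genes with a promoter peak, in a peak over the most 5′ TSS. The replicates were closer for Smo than for any other member. Of its 19 shared sites within 50 kb, 2 lay at its own promoter, 5 at promoters of other genes such as Tspan33 and Ahcyl2, and 12 outside promoters. The strongest of these 12 was chr6:29712141-29712310, 23277 bp upstream in an intron of Tspan33, with 67.8 in replicate 1 and 88.8 in replicate 2, averaging 78.3 ± 14.8 (SD, n = 2). An intergenic site 16457 bp upstream had 51.4 in replicate 1 and 48.4 in replicate 2, and an intronic site 23153 bp downstream had 37.7 and 53.8.

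GLI factors recognise GACCACCCA, and an exact match on either strand was found in 3 of the 165 sites (1.82%), 2 at Ptch1 and 1 at Smo, against 0.231% of all 197749 shared sites. These 9 letters hold a CACCC box, which KLF factors also bind. A match is a description of the letters and does not show that a GLI protein was bound. The first lay at chr13:63573465-63573473, in the first exon of the most 5′ Ptch1 transcript (5′ UTR), inside the promoter site chr13:63573401-63573570, which had 46.6 in replicate 1 and 41.6 in replicate 2. The second lay in a Ptch1 intron, at chr13:63569285-63569293, inside site chr13:63569161-63569310 with 28.3 in replicate 1 and 27.2 in replicate 2. The third was at chr6:29719073-29719081, inside the intergenic site 16457 bp upstream of Smo. With the fifth base left free (GACCNCCCA), 4 of the 165 sites had a match (2.42%), against 0.661% of all shared sites. The added one lay in the Ptch1 intronic site chr13:63566721-63566870, which had 39.2 in replicate 1 and 33.2 in replicate 2. One more exact match, at chr13:63566435-63566443 on the plus strand, stood 4 bp outside the strongest Ptch1 peak and was counted when sites were widened by 50 bp to each side, which raised the share over all shared sites to 0.329%. The 5 matches are shown with the 10 bases on each side, 5′ to 3′ on the strand that carries the motif, with the motif in capitals. This is the minus strand except for the last.
Ptch1 first exon: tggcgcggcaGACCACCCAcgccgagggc
Ptch1 intron: cctcagccctGACCACCCAagtcgagcag
Smo upstream: acatggtgggGACCACCCAtgtggtagag
Ptch1 intron, 1 base free: attcaagccgGACCTCCCAgtatttgctg
Ptch1 beside the strongest peak: aaagtagagaGACCACCCAggtaggcaac
The strongest Ptch1 promoter peak itself and the whole Smo upstream site follow, since they are the strongest sites at or next to a match. The Ptch1 peak is on the minus strand and holds 1 GC box in capitals. The Smo site is on the plus strand, with a GC box and then the GLI match, read in reverse complement, in capitals.
Ptch1 strongest promoter peak, chr13:63566281-63566430: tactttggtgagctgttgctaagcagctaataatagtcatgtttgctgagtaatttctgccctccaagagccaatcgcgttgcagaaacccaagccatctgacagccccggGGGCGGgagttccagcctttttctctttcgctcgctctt
Smo upstream site, chr6:29718961-29719130: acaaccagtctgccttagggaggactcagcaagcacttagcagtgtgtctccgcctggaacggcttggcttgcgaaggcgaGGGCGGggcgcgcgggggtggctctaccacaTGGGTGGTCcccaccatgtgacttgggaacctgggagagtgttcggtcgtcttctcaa

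**Figure D2:**
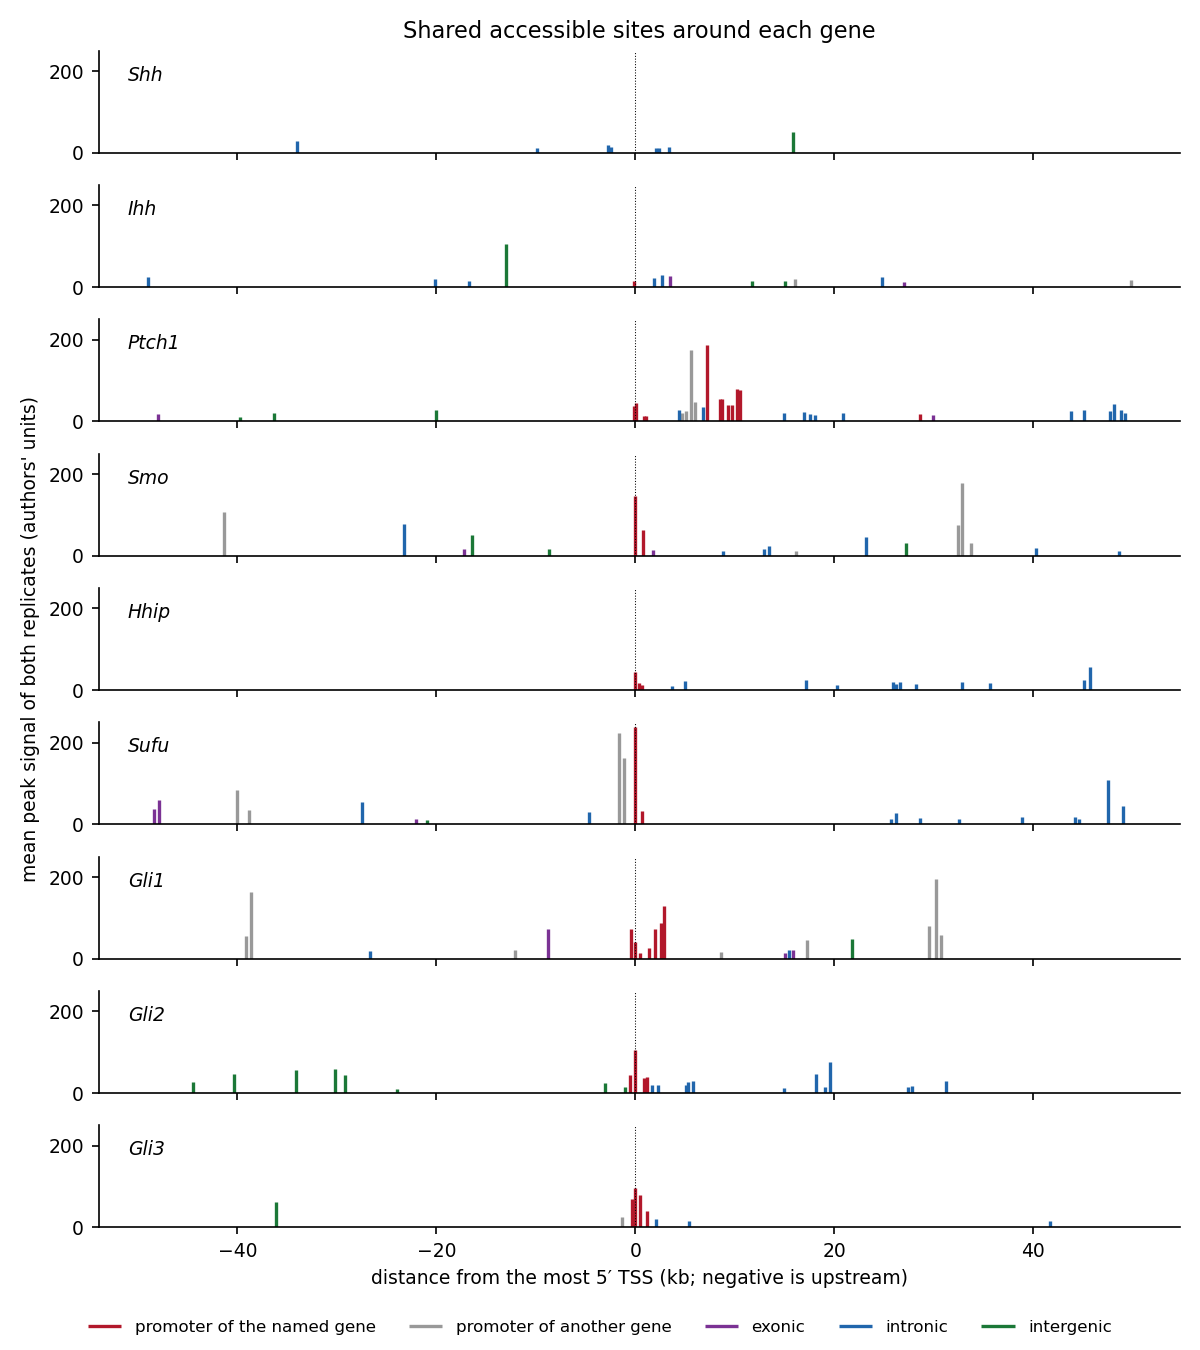
Shared accessible sites around each gene, out to 50 kb from its most 5′ TSS, 1 panel per gene, with distance from that TSS in kb (negative is upstream) against the mean signal of both replicates (authors' units), coloured by annotation. Ptch1 shows a cluster of its own promoter sites between 7242 and 10482 bp downstream of its most 5′ TSS. Hhip has 14 of its 15 sites downstream of the TSS, and the tallest Ihh line is the intergenic site 13004 bp upstream.

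The inhibitors differed widely in promoter signal, with Sufu the highest member and Hhip the lowest that is not a ligand. Sufu (chr19:46396896-46488804, plus strand) encodes Suppressor of fused, which holds Gli proteins in the cytoplasm. It had the highest promoter signal of the members, 229 in replicate 1 and 248 in replicate 2, averaging 238 ± 13.7 (SD, n = 2), at percentiles 93.9 and 92.4 of the genes with a promoter peak. The peak, chr19:46396781-46396930, spanned the most 5′ TSS. Promoter sites of the neighbouring gene Actr1a, a subunit gene of dynactin, lay 1120 and 1660 bp upstream with 137 and 217 in replicate 1 and 188 and 232 in replicate 2. An alternative start late in the gene, at position 46483097, had 34.3 in replicate 1 and 36.1 in replicate 2.

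Of the 21 shared sites within 50 kb of Sufu, 15 lay outside promoters, 9 of them in its own introns. The strongest, chr19:46444341-46444510, was 47530 bp downstream in a Sufu intron, with 95.6 in replicate 1 and 120.5 in replicate 2, averaging 108 ± 17.6 (SD, n = 2), and it held a CTCF match. An exonic site of 2310034G01Rik 47850 bp upstream averaged 59.8 ± 7.97, and an intronic site of Mfsd13a 27470 bp upstream averaged 54.7 ± 9.84 (SD, n = 2). The Sufu promoter before the TSS (RefSeq, GRCm38.p6, chr19:46396646-46396895) and the intronic site are shown as the strongest promoter and, by mean signal, the strongest distal site of all members, both on the plus strand. Capitals mark a GC box in the promoter, in reverse complement, and the CTCF match in the intronic site.
Sufu promoter: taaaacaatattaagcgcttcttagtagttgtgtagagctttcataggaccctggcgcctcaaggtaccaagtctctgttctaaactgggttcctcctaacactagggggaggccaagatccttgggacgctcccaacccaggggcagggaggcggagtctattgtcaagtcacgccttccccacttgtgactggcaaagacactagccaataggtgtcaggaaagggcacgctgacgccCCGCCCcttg
Sufu intronic site, chr19:46444341-46444510: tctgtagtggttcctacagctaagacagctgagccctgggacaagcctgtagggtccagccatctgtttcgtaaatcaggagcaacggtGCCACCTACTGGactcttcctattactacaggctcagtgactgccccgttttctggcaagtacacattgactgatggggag

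Hhip (chr8:79965851-80058006, minus strand) encodes a membrane protein that binds and withholds Hedgehog ligands. Its promoter signal was 48.4 in replicate 1 and 38.1 in replicate 2, averaging 43.2 ± 7.28 (SD, n = 2), at percentiles 26.6 and 20.7 of the genes with a promoter peak. It lay below Gli3 in both replicates. All 12 of its shared sites outside promoters lay in its own introns, and 14 of its 15 sites within 50 kb were downstream of the TSS. The strongest was chr8:80012261-80012430, 45660 bp into the gene, with 53.4 in replicate 1 and 59.1 in replicate 2, averaging 56.3 ± 4.01 (SD, n = 2), above the Hhip promoter peak in both replicates. A companion 45080 bp into the gene averaged 24.2 ± 4.05, and an intronic site 17190 bp into the gene averaged 23.7 ± 4.59 (SD, n = 2). The intronic site that exceeded the promoter is shown on the minus strand, and no motif searched was marked in it.
Hhip intronic site, chr8:80012261-80012430: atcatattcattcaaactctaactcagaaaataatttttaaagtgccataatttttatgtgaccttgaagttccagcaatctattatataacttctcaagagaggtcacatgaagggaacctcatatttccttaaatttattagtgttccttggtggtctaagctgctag

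The Gli genes had intermediate promoter signals. Gli1 (chr10:127329882-127341974, minus strand) encodes the activator that is induced by Hedgehog signalling. Its promoter signal was 121 in replicate 1 and 135 in replicate 2, averaging 128 ± 9.74 (SD, n = 2), at percentiles 63.5 and 63.8 of the genes with a promoter peak. This peak, chr10:127338981-127339130, was not at the main start but 2918 bp downstream of the most 5′ TSS and 903 bp from the annotated TSS at position 127339959. Windows of 500 bp left it out and gave Gli1 a promoter signal of 77.5. At the most 5′ TSS, a site 72 bp upstream had 39.3 in replicate 1 and 44.8 in replicate 2, and a site 482 bp upstream, with a CTCF match, had 73.0 and 71.4. Gli1 lies among other genes, so 8 of its 21 shared sites within 50 kb were promoters of other genes, and 6 were outside promoters. The strongest of those 6 was in an exon of Inhbe 8812 bp upstream, chr10:127350701-127350870, with 74.3 in replicate 1 and 72.5 in replicate 2, averaging 73.4 ± 1.34 (SD, n = 2). An intergenic site 21788 bp downstream averaged 47.5 ± 5.62, and an intronic site of Arhgap9 15468 bp downstream averaged 21.8 ± 1.39 (SD, n = 2).

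Gli2 (chr1:118834132-119053619, minus strand) encodes the main activator of the response. Its promoter signal was 113 in replicate 1 and 98.1 in replicate 2, averaging 106 ± 10.8 (SD, n = 2), at percentiles 59.5 and 48.2 of the genes with a promoter peak. A later start, at position 118982588, had 85.2 in replicate 1 and 83.2 in replicate 2. Gli2 had 24 shared sites within 50 kb, 12 in its introns and 8 between genes, and its 20 sites outside promoters put it at percentile 95.5 of all protein-coding genes. The strongest was chr1:119033941-119034110, in an intron 19593 bp downstream, with 75.6 in replicate 1 and 74.0 in replicate 2, averaging 74.8 ± 1.17 (SD, n = 2). Next came a pair of intergenic sites 30197 and 34127 bp upstream, with means of 58.3 ± 4.76 and 57.2 ± 0.376 (SD, n = 2), both with a CTCF match.

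Gli3 (chr13:15463235-15730026, plus strand) encodes the main repressor of the pathway in the absence of ligand. Its promoter signal was 89.3 in replicate 1 and 104 in replicate 2, averaging 96.7 ± 10.4 (SD, n = 2), at percentiles 47.5 and 50.7 of the genes with a promoter peak. The strongest peak was 481 bp downstream of the most 5′ TSS in replicate 1 and over that TSS in replicate 2. All 4 of its promoter sites also lay within 1 kb of a start of the gene Gm6556 on the other strand, so they cannot be given to 1 gene. Gli3 had the highest promoter CpG of the members but only 9 shared sites within 50 kb, 4 of them outside promoters. Of these 4, the strongest was intergenic at chr13:15427061-15427230, 36089 bp upstream, with 67.7 in replicate 1 and 58.6 in replicate 2, averaging 63.1 ± 6.42 (SD, n = 2). Intronic sites 2031 and 41721 bp downstream averaged 20.2 ± 0.530 and 15.8 ± 5.76 (SD, n = 2). The strongest distal sites of Gli2 (minus strand) and Gli3 (plus strand) are shown as the strongest of each gene, and neither held a match to the motifs marked elsewhere.
Gli2 intronic site, chr1:119033941-119034110: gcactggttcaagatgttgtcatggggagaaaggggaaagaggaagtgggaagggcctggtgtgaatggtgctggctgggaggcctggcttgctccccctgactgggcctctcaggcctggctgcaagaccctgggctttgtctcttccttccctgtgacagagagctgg
Gli3 upstream site, chr13:15427061-15427230: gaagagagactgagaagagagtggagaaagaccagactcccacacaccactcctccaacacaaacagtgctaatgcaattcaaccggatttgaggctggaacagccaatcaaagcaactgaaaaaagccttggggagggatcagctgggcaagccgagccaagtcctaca

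The loci differed in how many shared sites they held within 50 kb. The median was 19 sites per member, against 11 over all protein-coding genes, whose quartiles were 5 and 19. Of the members, 7 were above the median of all genes and 4 (Ptch1, Gli2, Sufu and Gli1) above their upper quartile, whereas Gli3 with 9 and Shh with 8 were below the median. Outside promoters the median was 12 sites per member, against 6 over all protein-coding genes. The medians over all genes cover any promoter CpG content. What part the members' high promoter CpG has in these differences was not tested. Of the 165 sites, 35 (21.2%) were at a promoter of the named gene, 24 (14.5%) at a promoter of another gene, 12 (7.27%) in exons, 73 (44.2%) in introns and 21 (12.7%) between genes. Within 5 kb of the most 5′ TSS there were 49 sites, and the 5 further distance classes, from 5 to 10 kb up to 40 to 50 kb, held 18, 27, 28, 19 and 24. Median signal was higher at the promoter sites of the named genes, with 48.4 in replicate 1 and 41.6 in replicate 2, than at intronic sites, with 20.5 and 19.95.

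**Figure D3:**
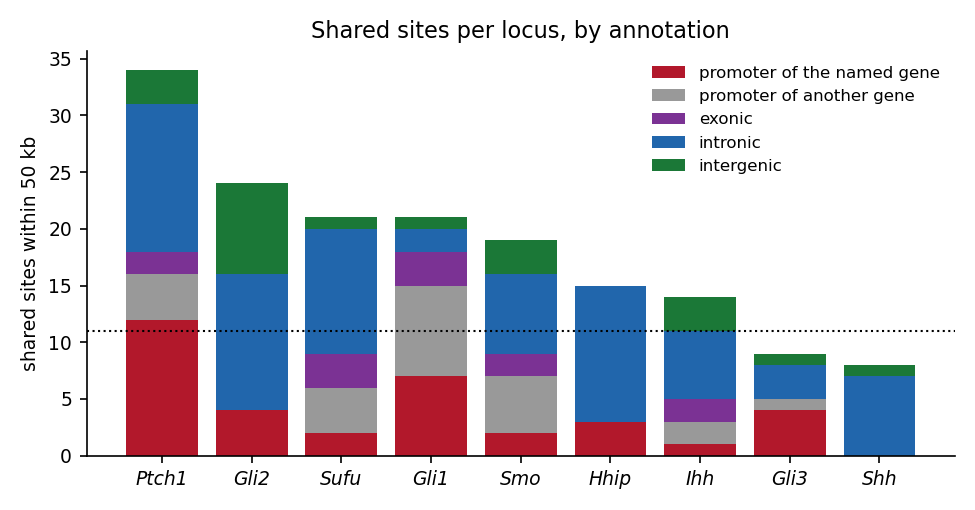
Number of shared sites around each gene, out to 50 kb from its most 5′ TSS, stacked by annotation and ordered by total. The dotted line is the median of 11 over all protein-coding genes. Ptch1 has 34 sites, of which 12 are at its own promoters, and Gli3 with 9 and Shh with 8 are the bars below the line.

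Replicates differed little at these loci. Over the 165 sites, the log2 ratio of replicate 1 over replicate 2, centred on its median over the whole series, had an SD of 0.31, against 0.35 over all shared sites. Signals of both replicates were within 2-fold at 99.4% of the 165 sites and at 99.4% of all shared sites. Within 50 kb of the members there were 222 peaks in replicate 1 and 211 in replicate 2, of which 74.3% and 78.7% were shared, against 74.7% and 77.3% of all peaks. By gene, the lowest share was 52.9% of the 17 Gli3 peaks in replicate 1, while 75% of the 12 Gli3 peaks in replicate 2 were shared. The strongest peak without a partner was one of 36.4 at a Ptch1 promoter in replicate 2, so each peak above that signal at these loci was shared.

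Other motifs were searched in the same way. GC boxes (GGGCGG) were in 22.4% of the 165 sites, against 12.5% of all shared sites, and the part that the mix of promoter and other sites has in this was not tested. CTCF matches were in 5 of the 165 sites (3.03%), against 3.38% of all shared sites. Of the motifs of factors common at enhancers, AP-1 (TGANTCA) was in 8 of the 165 sites (4.85%), against 7.28% of all shared sites. TEAD (GGAATG) was in 13 (7.88%), against 13.9%. For these motifs too, the part that the mix of promoter and other sites has was not tested. The NRF1 and NFI motifs matched none of the 165 sites, against 0.182% and 0.102% of all shared sites, and ETS (CCGGAAGT) matched 1, against 0.924%. RefSeq promoter sequences, from 250 bases before to 50 after the start, were at hand for 7 members, Shh and Gli1 being the others. None of the 7 held GACCACCCA, against 0.253% of all 32817 promoters, and 6 of them (Ihh, Ptch1, Hhip, Sufu, Gli2 and Gli3) held GGGCGG, against 35.6% of all promoters. That share covers promoters of any CpG content, and the part that the members' high promoter CpG has in this was not tested. Among these 7 sequences, the CCAAT box of NF-Y was in that of Sufu alone, against 37.4% of all promoters. The strongest Ptch1 promoter peak, which lies outside the RefSeq sequence of Ptch1, also holds CCAAT.

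The rest of the pathway was counted over 41 further genes, listed by role. All 41 had a promoter peak in both replicates, against 71.8% of all protein-coding genes. That share covers genes of any CpG content, and it is a low standard for this list. Apart from Gpr161 (CpG quintile 1) and Prkar1a (quintile 2), every listed gene was in quintile 3, 4 or 5. In those quintiles 89.7%, 97.9% and 99% of all protein-coding genes had such peaks. The median promoter signal of the 41 genes was 85.9. For all protein-coding genes with a promoter peak it was 94.0 in replicate 1 and 103 in replicate 2. The lists were chosen with results of these data known, so their counts describe the genes and are no support for a pattern.

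By role, the 6 genes of ligand making and release had a median promoter signal of 48.3. Scube2, a secreted protein that helps release ligand, was lowest with 20.4 ± 0.177, and Disp1, the transporter that releases ligand from the cell, was highest with 116 ± 16.7 (SD, n = 2). The third ligand gene, Dhh, had 26.9 ± 2.31 (SD, n = 2). All 3 ligand genes thus lay below the median of protein-coding genes with a promoter peak, Shh by its value in replicate 2 alone. The 7 co-receptors and surface regulators had a median of 85.9. Lrp2, the endocytic receptor of proximal tubules, was lowest with 45.6 ± 7.40 (SD, n = 2). The co-receptors Cdon, Boc and Gas1, which present ligand to Patched, had 114 ± 21.3, 85.9 ± 7.98 and 235 ± 15.1 (SD, n = 2).

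The 8 genes of the cilium and of receptor regulation had a median of 84.7, with Arl13b, a small GTPase of the ciliary membrane, highest at 235 ± 37.7 and Gpr161, a ciliary receptor that restrains the pathway, lowest at 22.3 ± 0.309 (SD, n = 2). The 8 regulators of Gli proteins had the highest median, 205. Gsk3b, a kinase that phosphorylates Gli proteins for processing, was highest among them with 317 in replicate 1 and 332 in replicate 2, and Kif7, the ciliary kinesin, lowest at 96.3 ± 14.4 (SD, n = 2). The 12 downstream genes, known targets or genes of the stroma, ureter and nephron progenitors, had a median of 77.4, with Mycn, a growth-promoting transcription factor, highest at 172 ± 15.8 and Tshz3, a transcription factor of ureter smooth muscle, lowest at 50.5 ± 1.10 (SD, n = 2). The range within each role was wider than the spread between replicates of any gene named here.

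**Figure D4:**
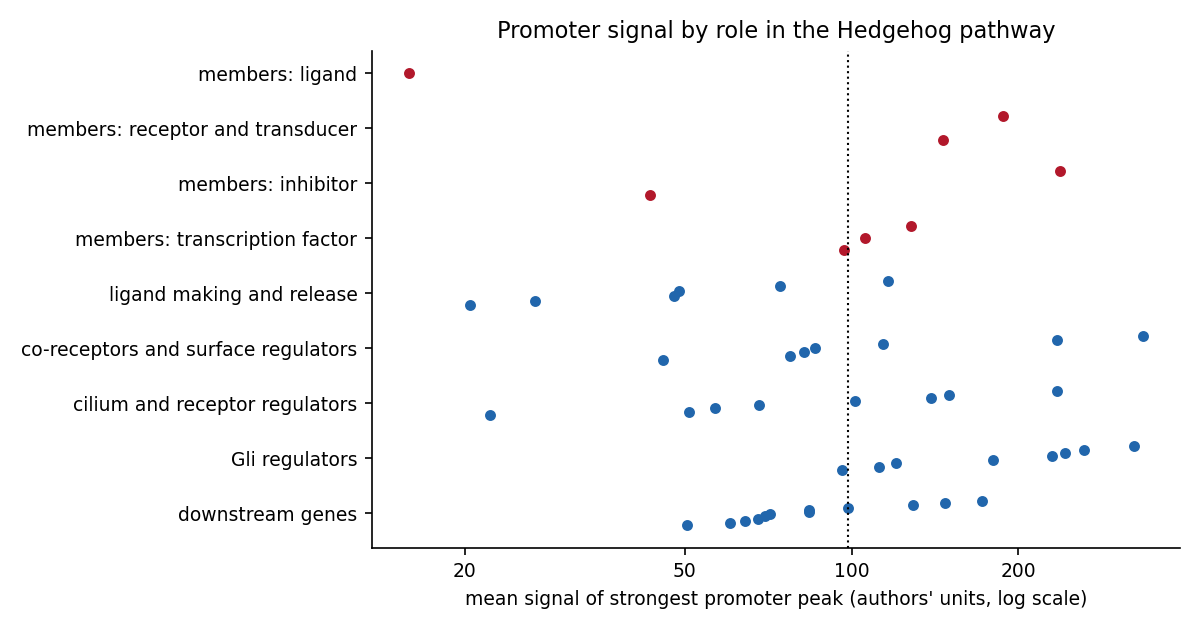
Mean promoter signal of both replicates (authors' units, log axis) for the members by role (red) and for 41 further pathway genes by role (blue), for genes with a promoter peak in both replicates, so that Shh has no point. The dotted line is the median over all protein-coding genes with a promoter peak, taken as the mean of both replicates' medians. The ligand Ihh has the lowest point at 15.9, and Sufu has the highest point of the members at 238.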

How the data were processed

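DNase-seq peaks of newborn B6NCrl kidney were analysed in 1 group of 2 replicates. Each replicate has 1 peak list, deposited by the authors and called per sample from 1 alignment of 36-nt reads to mm10, per the file headers. The aligner, the peak caller, its threshold, the depth and any scaling of the signal for it were not given in the sources used here, so no precision per peak can be given. The deposited signal value of each peak was used to describe and rank peaks. The deposited −log10 p-value of each peak was not used.

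The members, the gene lists, the motifs and the rules for named genes and sites were chosen with earlier results of these data known. The rule names every member, each member's strongest promoter site and its 3 strongest shared sites outside promoters, every site with a GLI match, and of each role list the genes with the highest and lowest mean percentile of promoter signal, together with Dhh, Cdon, Boc and Gas1. A few genes under this rule are not reported here by name; counts and medians still hold them. Other sites and alternative starts were named after their values were seen.

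A shared site was the union of peaks that overlapped by at least 1 bp and came from both replicates. It was placed by its centre as promoter (within 1 kb of any GENCODE M21 TSS), then as exonic, as intronic and otherwise as intergenic. Promoter signal of a gene was that of its strongest peak overlapping 1 kb to either side of any TSS, so genes with more TSSs have more chances. Percentiles of promoter signal are among protein-coding genes with a promoter peak in that replicate. Promoter CpG was taken 500 bp to each side of the most 5′ TSS. Motifs were exact matches on both strands, and the CTCF motif was a degenerate core. Values are per replicate or mean ± SD (n = 2). Alternatives were other promoter and locus windows, protein-coding transcripts only, stronger peaks, a stricter overlap and each replicate alone. Python 3.11.15, numpy 2.4.6, pandas 2.3.3, pysam 0.24.0 and matplotlib 3.10.9 were used, and the counting steps were tested on simulated data.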

Additional observations from a re-analysis of the deposited data

How the results depend on the processing

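With 1 group and 2 replicates there is no test to pass or fail, and values are descriptions. The number of shared sites at the members was 165 within 50 kb, 105 within 25 kb and 287 within 100 kb. Of 28 alternatives to the 5 main results, the other 26 stayed within 1.5 times the main value. With peaks in the upper 50% of signal the sites numbered 110, at the very limit of that range. Without replicate 1 or replicate 2 in turn, members with a promoter peak numbered 8 to 9, listed pathway genes with one 41 to 41, sites 211 to 222, sites with a GLI match 3 to 4 and the median promoter signal 104 to 117. The GLI match that replicate 1 alone added was in a Hhip intron, at chr8:80020681-80020830, in a peak of 8.80. The Shh promoter peak rests on replicate 2. When the peaks were restricted to the upper 50% by signal, Ihh kept its promoter peak in replicate 2 alone, and 7 members had one in both replicates. Per gene, other promoter windows moved the promoter signal by over 1 SD between replicates for Ihh, at 21.4 with windows of 2 kb, and for Ptch1 at 80.1 and Gli1 at 77.5 with windows of 500 bp, where the median over the members was 88.4. No paired analysis was possible because the study holds 1 group. Depth, which would set how far a missing peak at Shh means closed chromatin, is unknown.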

Other observations

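Gli2, Gli3 and Sufu carried many accessible sites in their bodies beyond the 50 kb described above. Counts here were added after the data were seen and are descriptions. Sites in the gene body numbered 39 in Gli2, 28 in Gli3, 32 in Sufu and 30 in Ptch1, and of these 25, 23, 22 and 1 lay more than 50 kb from the most 5′ TSS. Per 10 kb of gene body, Ptch1 had 4.60 sites, Sufu 3.48, Smo 2.71, Gli2 1.78, Hhip 1.74 and Gli3 1.05, against a median of 0.909 over 10159 protein-coding genes of 20 kb or longer. The Ptch1 density was at percentile 99.2 of those genes and the Gli3 density at percentile 56.3. Of this kind, the strongest Gli2 site in replicate 1 was chr1:118982561-118982710, over the alternative start at position 118982588, with 85.2 in replicate 1 and 83.2 in replicate 2. The strongest in replicate 2, 151263 bp from the TSS at chr1:118902281-118902430, had 82.3 in replicate 1 and 86.0 in replicate 2. In Gli3 the strongest was chr13:15715241-15715390, 252081 bp from the TSS, with 69.9 in replicate 1 and 67.3 in replicate 2, below the Gli3 promoter signal in both replicates.

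Shh lies beside a long stretch with few genes that holds its known long-range enhancers, among them the limb enhancer ZRS in intron 5 of Lmbr1. Between the Shh TSS and the near end of Rnf32, over 729 kb, there were 13 shared sites in newborn kidney. By steps of 100 kb from the TSS, the counts of shared sites up to 1000 kb upstream were 6, 0, 1, 0, 2, 1, 1, 2, 5 and 6. The strongest of the 13 was chr5:29195781-29195950 at the Rnf32 end, with 40.1 in replicate 1 and 56.1 in replicate 2. It lies right beside the boundary of Rnf32 at position 29195992, and promoter sites were not left out of the 13. Whether it belongs to Rnf32 or to Shh was not tested. Next came chr5:28955161-28955330, 488 kb from the TSS, with 28.7 in replicate 1 and 32.8 in replicate 2. Intron 5 of Lmbr1 held 2 shared sites, chr5:29293321-29293470 with 27.5 in replicate 1 and 34.2 in replicate 2 and chr5:29315121-29315350 with 12.5 and 11.5, at 826 and 848 kb from Shh. Whether either overlaps the ZRS was not tested.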
